A study of Mus musculus with 3 samples.

Results

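A set of 75 of the 14133 genes measured in female mouse germ cells stood at least 2.5-fold higher at embryonic day 14.5 (E14.5) than at both E12.5 and E16.5. The set was chosen by level. A gene belonged to it when its E14.5 level was at least 10 CPM (counts of captured RNA molecules per 1000000) and at least 2.5-fold above the level at both E12.5 and E16.5, to each of which 0.1 CPM was added. The level used for this choice was the mean over a stage's cells of each cell's CPM. Of the 7260 genes with at least 10 CPM at E14.5, 84 (1.16%) met these limits, and 9 of them were left out by name (Stra8, Rec8, Msx1, Sp5, Ccnd1, Zfp385a, Slc22a17, Slc27a3 and Slc6a17). The height at E14.5 over the neighbouring stages is therefore given as a description with no test.

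The cells were primordial germ cells, the embryonic precursors of eggs and sperm, from fetal ovaries of C57BL/6 mice at E12.5, E14.5 and E16.5. They had been sorted for Oct4-EGFP, green fluorescence under control of Oct4 (Pou5f1), a pluripotency gene that germ cells keep on. Each stage was 1 droplet library with no replicate, so stage and library cannot be told apart, and no comparison between stages could be tested. The labels do not say how many embryos were pooled. The libraries held 4706, 9075 and 5363 cells in time order, with 125648312, 104214125 and 69821387 unique molecular identifiers (UMIs), each of which marks a single captured RNA molecule. Levels below are CPM of the UMIs summed over the cells named. UMIs are read near the 3' end of a transcript, so these levels do not scale with gene length. Ranges in parentheses are exact Poisson 95% intervals that cover counting error only. Where an exact binomial interval is named, it takes the cells or UMIs of a library as independent draws and also covers counting error only.

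As background, female germ cells of the mouse leave the mitotic cycle and enter meiosis around the middle of these stages. Retinoic acid and BMP signals from the surrounding tissue act on them, Stra8 and its partner Meiosin switch on meiotic genes, and a last round of DNA replication precedes the pairing of homologous chromosomes. Pluripotency genes are turned off over the same interval. Levels are given below over all cells of a library, and again with cells holding many somatic markers set apart.

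Markers of germ cells were abundant at all stages, with a summed level of 8110, 8500 and 10596 CPM for 20 genes. The 20 measured markers of pregranulosa cells, the somatic supporting cells of the ovary, summed to 57.0, 100.2 and 43.2 CPM. Erythroid markers (5 measured) stood at 0.979, 12.7 and 77.1 CPM, blood and immune markers (4 measured, 1 and 2 of them at 0 at E12.5 and E14.5) at 6.13, 2.24 and 48.0 CPM, endothelial markers (7 measured) at 101.2, 40.4 and 29.1 CPM, and mesonephric markers (5 measured) at 22.4, 7.96 and 7.02 CPM. Neural (4 measured) and interstitial (2 measured) markers stayed at 28.8 and 3.98 CPM or less. Against the label, 667 of 4706 E12.5 cells (14.2%, exact binomial 95% interval 13.2 to 15.2%) held UMIs of Y-linked genes. None did at E14.5 or E16.5, where 3 counts would allow 0.0331% and 0.0559% of cells. Without those cells the rule found 74 genes, and the member lost was Lzts2, whose ratio went from 2.54 to 2.49. Of 18971 cell barcodes, 173 occurred in more than 1 library.

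The sequences before the start sites of 5 members are printed first, because the levels of these genes recur below and because each holds at least 1 of the short motifs searched. Each line gives the 250 bases before the RefSeq start (GRCm38.p6), 5' to 3' on the gene's strand, with matches in capitals. Tuba3a (chr6:125286082-125286331, minus strand) holds GGCGGGAA, an E2F-type motif. Syne4 (chr7:30314566-30314815, plus strand) holds TCAAAG, the core of TCF/LEF sites, and CNCCTCAG, the motif known for Stra8 and Meiosin. Gamt (chr10:80261013-80261262, minus strand) and Hdac5 (chr11:102230173-102230422, minus strand) hold CNCCTCAG, and Sct (chr7:141279134-141279383, minus strand) holds GGCGCC, a GC-rich motif bound by SMAD proteins.
Tuba3a: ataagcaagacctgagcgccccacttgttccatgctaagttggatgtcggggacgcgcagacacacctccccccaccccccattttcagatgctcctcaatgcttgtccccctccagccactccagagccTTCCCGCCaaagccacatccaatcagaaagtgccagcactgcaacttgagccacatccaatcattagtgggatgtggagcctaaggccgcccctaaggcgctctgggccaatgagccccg
Syne4: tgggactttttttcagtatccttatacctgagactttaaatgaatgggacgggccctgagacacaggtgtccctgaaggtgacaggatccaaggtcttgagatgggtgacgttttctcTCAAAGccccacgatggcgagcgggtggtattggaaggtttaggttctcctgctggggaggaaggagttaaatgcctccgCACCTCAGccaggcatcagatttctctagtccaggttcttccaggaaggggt
Gamt: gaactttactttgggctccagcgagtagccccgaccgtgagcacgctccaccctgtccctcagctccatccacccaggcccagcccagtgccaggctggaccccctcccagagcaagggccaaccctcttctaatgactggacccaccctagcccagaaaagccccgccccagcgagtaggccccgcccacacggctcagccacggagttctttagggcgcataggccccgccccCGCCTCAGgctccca
Hdac5: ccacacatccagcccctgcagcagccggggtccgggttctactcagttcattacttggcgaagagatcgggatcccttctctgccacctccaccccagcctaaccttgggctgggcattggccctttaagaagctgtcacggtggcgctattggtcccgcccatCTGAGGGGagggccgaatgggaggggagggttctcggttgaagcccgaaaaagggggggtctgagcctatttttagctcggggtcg
Sct: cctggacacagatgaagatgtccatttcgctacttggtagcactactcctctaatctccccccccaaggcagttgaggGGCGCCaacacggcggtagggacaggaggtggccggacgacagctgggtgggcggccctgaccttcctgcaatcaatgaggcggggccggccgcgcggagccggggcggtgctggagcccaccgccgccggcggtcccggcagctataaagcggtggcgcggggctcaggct

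The matches begin at position -120 from the start in Tuba3a, -132 (TCAAAG) and -52 (CNCCTCAG) in Syne4, -15 in Gamt, -86 in Hdac5 and -172 in Sct. Both strands were searched for the 5 motifs, over a window of 300 bases that also takes in the first 50 bases after the start. CNCCTCAG was found in 8 of 51 windows (15.7%) and in 10.3% of the 5968 windows of all genes of at least 10 CPM. TCAAAG was found in 9 (17.6%) against 11.3%, GGCGCC in 12 (23.5%) against 24.0%, the E-box CACGTG in 2 (3.92%) against 11.4%, and GGCGGGAA in 1 (1.96%) against 5.16%. The 51 windows are those in the RefSeq table among the 67 members whose E14.5 UMIs lay mostly outside somatic marker cells (defined in the next paragraph). They are fewer than 80% of the 67, so this comparison is void and the shares only describe the sequences. A match is a run of letters and not a bound site.

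A few members had most of their E14.5 UMIs in a small number of cells with many pregranulosa markers. Cells with UMIs of at least 5 of the 20 measured markers, called marker cells here, numbered 25 (0.531% of cells, exact binomial 95% interval 0.344 to 0.783%) at E12.5, 157 (1.73%, 1.47 to 2.02%) at E14.5 and 19 (0.354%, 0.213 to 0.553%) at E16.5. These cells are a range set by a count and not a type, and 37, 16 and 4 cells lay just under the limit at 4 markers in time order. The order of the shares changed with the limit. A limit of at least 3 markers took in 318 cells (6.76%) at E12.5, 256 (2.82%) at E14.5 and 50 (0.932%) at E16.5, and the median depth of cells under 5 markers was 26709, 11001 and 12658 UMIs. Marker cells held UMIs of a median of 4, 2 and 8 of 20 germ cell markers in time order, against 13, 13 and 11 in the other cells, and their own median depth was 13944, 8603 and 13420 UMIs. At least 50% of the E14.5 UMIs lay in marker cells for 8 of 75 members, beside 0.248% of all genes of at least 10 CPM. The 8 were Xist, Fst, Kctd14, Wnt6, Anxa2, S100a10, Lgals7 and Myl9, with shares from 77.1% (Myl9, exact binomial 95% interval 74.4 to 79.6%) to 93.6% (Xist, 92.5 to 94.6%), and all 8 were below 10 CPM at E14.5 in the other cells. Over all cells, the library with the highest pregranulosa marker level is thus also the stage at which the members were chosen to be highest. The 20 markers include the members Wnt6 and Fst, so this is partly built in. In the other cells the 20 markers summed to 48.4, 39.8 and 30.2 CPM in time order, highest at E12.5.

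Wnt6, a secreted WNT ligand, had the largest ratio of the whole set on the mean over cells (6.43-fold over the higher of the other stages). On summed UMIs its ratio (log2 2.38) was below those of Kctd14 (2.66), Rgs10 (2.61), Gchfr (2.44) and, by little, Tmem205 (2.39). It stood at 1.18 CPM (0.996 to 1.38) at E12.5, 12.1 CPM (11.4 to 12.7) at E14.5 and 2.22 CPM (1.88 to 2.598) at E16.5. In the other cells it was at 0.192, 1.08 and 0.676 CPM in time order, and in marker cells at 277, 759 and 395 CPM. Fst, which encodes the activin-binding protein follistatin, stood at 1.93 CPM (1.698 to 2.19) at E12.5, 8.47 CPM (7.92 to 9.05) at E14.5 and 2.22 CPM (1.88 to 2.598) at E16.5, and in the other cells at 0.511, 0.565 and 0.5895 CPM. Both genes are among the 20 markers, so their place in marker cells is partly built in. With the cells taken from the other 18 markers (156 cells at E14.5), 90.9% of the E14.5 UMIs of Wnt6 and 93.3% of those of Fst still lay in them. The other cells held little of either gene at any stage.

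Xist, the noncoding RNA that coats and silences an X chromosome and that female germ cells turn off when they reactivate it, was lowest at E14.5 once marker cells were set aside. Over all cells it stood at 5.52 CPM (5.11 to 5.94) at E12.5, 20.1 CPM (19.3 to 21.02) at E14.5 and 9.95 CPM (9.23 to 10.7) at E16.5. In the other cells it was at 3.35, 1.305 and 5.78 CPM, and in marker cells at 612, 1301 and 1072 CPM. Anxa2 and S100a10, whose products form a membrane-binding complex, were also lower at E14.5 than at E12.5 in the other cells, at 6.65, 4.41 and 2.39 CPM and 5.79, 3.21 and 1.62 CPM. Myl9, a myosin light chain of contractile cells, was at 0.998, 2.35 and 1.697 CPM and Lgals7, a galectin, at 6.63, 6.44 and 9.39 CPM. Kctd14, with an all-cell level of 4.37, 34.5 and 5.37 CPM, was at 1.16, 2.41 and 1.57 CPM in the other cells.

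A further 6 members had 10 to 50% of their E14.5 UMIs in marker cells, and 61 had under 10%. The 6 were Ccnd2 (38.03%), which encodes cyclin D2, the Myc relative Bmyc (37.4%), Fndc5 (26.4%), the neighbours Tmem176b (21.8%) and Tmem176a (20.3%), and the growth factor Igf2 (10.9%). Without marker cells, 63 of 75 members still met the rule. The 12 that did not were the 8 above with Ccnd2, Bmyc, Fndc5 and Cercam, and 1 gene entered, Fbln1. In those other cells Bmyc stood at 9.52, 23.7 and 5.48 CPM, so it was still highest at E14.5, by 2.26-fold on the measure of the rule. The 67 members with less than 50% of their E14.5 UMIs in marker cells, with a median share of 1.69% against 1.19% for all genes of at least 10 CPM, are described in what follows, except where all 75 are named.

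**Figure D1:**
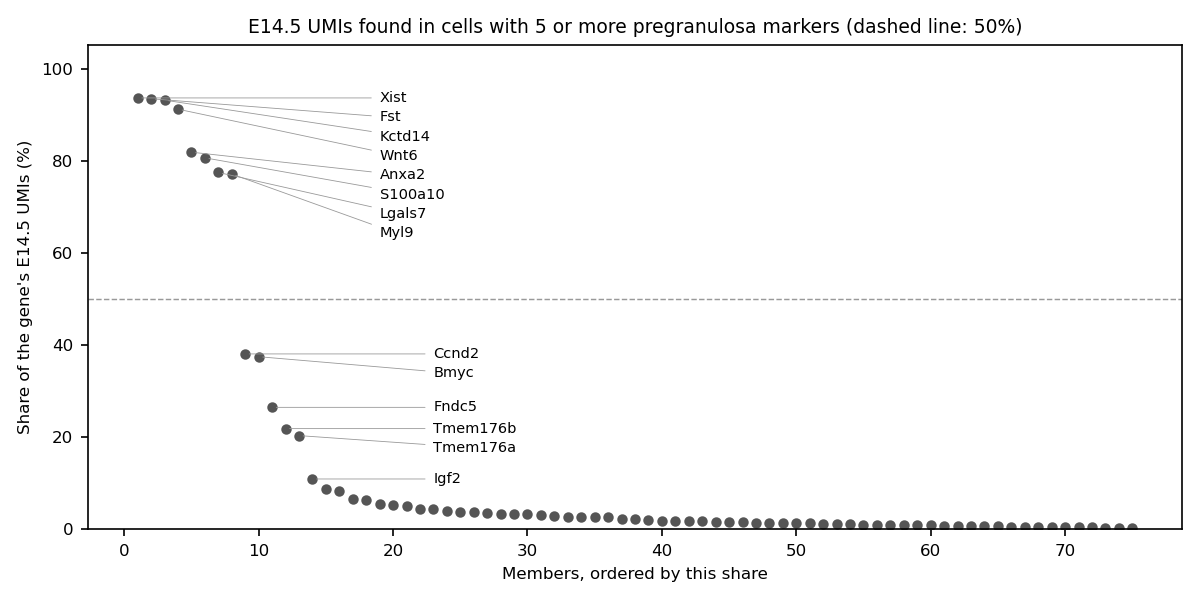
Share of each member's E14.5 UMIs (percent, vertical axis) that lay in the 157 E14.5 cells with UMIs of at least 5 pregranulosa markers, for the 75 members ordered by that share; each point is 1 gene and the dashed line marks 50%. The 8 labelled points above the line lie between 77.1 and 93.6%, and the next, Ccnd2, lies at 38.0%.

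The 67 differed in their level in marker cells. Their CPM was higher in marker cells than in the other cells for 54 of 67 at E12.5, 38 at E14.5 and 49 at E16.5, beside 47.0, 37.9 and 41.1% of the 7260 genes of at least 10 CPM. Marker cells numbered only 25 at E12.5 and 19 at E16.5, so some of these calls lie within counting error. Sfrp2, for example, counted as higher at E12.5 on 2 UMIs (4.47 CPM, 0.541 to 16.1, against 3.05 CPM). At E14.5, 29 were lower in marker cells, among them Tuba3a (90.7 against 474 CPM), Cdkn2d (51.0 against 158) and Sct (19.9 against 101.2). Their summed level was 2787, 4971 and 3710 CPM in marker cells and 729, 2884 and 890 CPM in the other cells. The level in the other cells was thus several-fold higher at E14.5 than at the stages beside it, as the choice of members requires, and the sum in marker cells was higher at each stage, and at E14.5 it included Bmyc (962 CPM), Tmem176b (364) and Ccnd2 (302). What marker cells share with the others in these genes was not tested.

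Over the 75, levels spanned more than an order of magnitude. The E14.5 mean CPM ran from 10.1 to 491 with a median of 19.98, and the ratio to the higher of the other stages from 2.52 to 6.43 with a median of 3.18. The E12.5 values ran from 0.324 to 125 (median 4.64) and the E16.5 values from 1.41 to 191 (median 5.29), and 46 of 75 were higher at E16.5 than at E12.5, close to the background of 58.2% of genes of at least 10 CPM. Just inside the limit were 2810428I15Rik (2.52), Lzts2 (2.54) and Tuba3a (2.56), and just outside were Fbln1 (2.47), Tuba3b (2.46) and Rnd2 (2.45). Members are grouped below by what their products are known to do. The groups were made after the values were seen, and 40 members were named by a rule while the rest were picked for their role. Where 3 values are given for a gene they are in time order.

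Cytoskeletal genes made up a group that included the most abundant member, while others of the group were low. Tuba3a, an alpha-tubulin isotype typical of the germ line (chromosome 6, 125278274 to 125286042, minus strand, GRCm38), stood at 127 CPM (125 to 129) at E12.5, 469 CPM (465 to 473) at E14.5 and 193 CPM (189.9 to 196) at E16.5. Its near-identical copy Tuba3b, at 7.92, 54.9 and 22.2 CPM as the mean over cells used for the choice (on which Tuba3a was at 125, 491 and 191), missed the limit by little, and reads of the pair may be shared between them. Syne4, which encodes nesprin-4, a protein of the outer nuclear membrane that binds kinesin (chromosome 7, 30314807 to 30319046, plus strand), stood at 17.05 CPM (16.3 to 17.8) at E12.5, 67.8 CPM (66.2 to 69.4) at E14.5 and 11.2 CPM (10.4 to 12.03) at E16.5. It was lower at E16.5 than at E12.5, while Tuba3a was in the opposite order. Arhgdig was at 7.42 CPM (6.95 to 7.91) at E12.5, 59.6 CPM (58.2 to 61.1) at E14.5 and 15.02 CPM (14.1 to 15.96) at E16.5. The centrosomal protein gene Tacc2 was at 3.78, 18.1 and 3.38 CPM, the small GTPase Rac3 at 4.43, 17.6 and 4.53 CPM, the microtubule-binding Eml3 at 6.72, 27.4 and 9.81 CPM and the membrane-bending Bin1 at 1.23, 13.7 and 5.04 CPM in time order.

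Few members were genes of cell cycle control. Ccnd1, at 6.91, 93.6 and 9.58 CPM as the mean over cells, met the rule but was left out by name. Cdkn2d, the INK4-family inhibitor p19 of the kinases CDK4 and CDK6 (chromosome 9, 21288410 to 21291407, minus strand), stood at 24.5 CPM (23.6 to 25.3) at E12.5, 157 CPM (154 to 159) at E14.5 and 45.3 CPM (43.7 to 46.9) at E16.5, a ratio of 3.58. Ccnd2, a partner of the same kinases, was far lower, at 3.43, 11.5 and 2.36 CPM. Of the 34 genes of S phase entry and replication, all were measured and 31 had at least 10 CPM at E14.5. In that list 1 was 2.5-fold above E12.5 and 5 above E16.5, beside 19.2 and 7.91% of all genes of that level, and none met both, beside 1.16%.

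Secreted ligands and peptides made up a second group. Nrtn, the GDNF-family ligand neurturin (chromosome 17, 56751325 to 56757530, minus strand), stood at 25.2 CPM (24.3 to 26.1) at E12.5, 135 CPM (133 to 138) at E14.5 and 52.3 CPM (50.6 to 54.03) at E16.5. Sct, the gut hormone secretin (chromosome 7, 141278330 to 141279133, minus strand), was at 24.3 CPM (23.4 to 25.1) at E12.5, 100.03 CPM (98.1 to 102) at E14.5 and 10.4 CPM (9.66 to 11.2) at E16.5. Sct at E16.5 was lower than at E12.5, while Nrtn was higher. The neurotrophic factor Metrn was at 14.5 CPM (13.8 to 15.1) at E12.5, 59.03 CPM (57.6 to 60.5) at E14.5 and 20.2 CPM (19.1 to 21.2) at E16.5. Igf2, an imprinted growth factor, was at 1.44, 17.9 and 5.16 CPM and Tgfb1, the founding TGF-beta ligand, at 2.499, 11.7 and 1.63 CPM. The WNT-binding inhibitor Sfrp2 was at 3.06, 12.97 and 2.13 CPM, the secreted C1q-like proteins C1ql1 and Fam132a (adipolin) at 12.6, 51.3 and 15.2 CPM and 5.39, 20.3 and 3.82 CPM. These are levels of RNA, and no protein was measured.

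Receptors and genes of signal transfer made up another group. Il11ra1, the alpha chain of the interleukin-11 receptor, was at 15.7, 43.2 and 11.2 CPM, and Fgfr3, an FGF receptor, at 3.72, 17.8 and 6.69 CPM. Rgs10, which speeds the shut-off of G proteins, was at 2.82 CPM (2.53 to 3.13) at E12.5, 26.9 CPM (25.9 to 27.9) at E14.5 and 4.297 CPM (3.82 to 4.81) at E16.5 and had the second largest ratio of the set on the mean over cells (6.27). Among the 67 this was the largest, on that measure and on summed UMIs. Shisa2, which holds FGF and WNT receptors in the endoplasmic reticulum, was at 1.49, 13.8 and 4.97 CPM, and the integrin subunit Itgb5 at 2.64, 11.8 and 4.14 CPM.

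Transcription regulators in the set included the LIM-only cofactors Lmo4 and Lmo1, the deacetylase Hdac5 and the bHLH factor Scx (scleraxis). Other regulators, among them Msx1, Sp5 and Stra8, met the rule but were left out by name. Lmo4 stood at 5.396 CPM (4.997 to 5.82) at E12.5, 30.9 CPM (29.8 to 31.96) at E14.5 and 7.43 CPM (6.81 to 8.101) at E16.5. Lmo1 was at 5.24, 26.4 and 9.35 CPM, Hdac5 at 8.39, 28.7 and 10.1 CPM and Scx at 0.899, 13.5 and 4.08 CPM. Lmo1 at E12.5 was the member whose mean level moved most in proportion without the cells holding Y-linked UMIs, from 5.31 to 4.13 CPM. In this group Scx was nearest to 0 at E12.5.

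Enzymes and membrane proteins made up a further group. Gamt, which makes creatine (chromosome 10, 80258151 to 80261012, minus strand), stood at 14.03 CPM (13.4 to 14.7) at E12.5, 53.9 CPM (52.5 to 55.3) at E14.5 and 8.81 CPM (8.13 to 9.53) at E16.5. Ebpl, a relative of the sterol isomerase EBP, was at 49.7 CPM (48.4 to 50.9) at E12.5, 173 CPM (171 to 176) at E14.5 and 67.3 CPM (65.3 to 69.2) at E16.5. Gchfr, the feedback regulator of tetrahydrobiopterin synthesis, was at 0.899, 16.1 and 2.88 CPM. The fatty acid elongase Elovl1 was at 3.28, 19.97 and 4.77 CPM, the sialic acid lyase Npl at 6.82, 18.2 and 5.71 CPM, the xylulose reductase Dcxr at 4.202, 16.1 and 5.51 CPM, the mucin-type glycosyltransferase Galnt12 at 1.76, 10.9 and 3.795 CPM and Wdr6, a partner in tRNA methylation, at 15.01, 56.8 and 12.03 CPM. Of the membrane proteins, the vesicle protein Syngr2 was at 27.2, 86.2 and 34.04 CPM, Tmem205 at 4.44, 28.7 and 5.39 CPM and Tmem141 at 0.501, 12.8 and 2.75 CPM. Among these 3, Tmem141 was closest to 0 at E12.5.

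Some members have no role given here. 2810428I15Rik, named Rex1bd in RefSeq, was the second most abundant member, at 95.7 CPM (93.96 to 97.4) at E12.5, 228 CPM (225 to 231) at E14.5 and 76.3 CPM (74.2 to 78.3) at E16.5. Limd2 was at 7.08 CPM (6.63 to 7.56) at E12.5, 61.4 CPM (59.9 to 62.9) at E14.5 and 17.8 CPM (16.9 to 18.9) at E16.5, Wbp1 at 20.4, 62.8 and 20.9 CPM, Flywch2 at 12.2, 52.7 and 17.5 CPM, Fam189b at 6.34, 31.5 and 5.79 CPM, Rusc1 at 1.58, 18.3 and 4.12 CPM and Sh3bgr at 2.91, 14.2 and 1.93 CPM. Of the members not yet given, the cyclophilin Ppic was at 14.9, 50.7 and 16.01 CPM, Vat1 at 13.1, 40.2 and 12.2 CPM, Fxyd5, a regulator of the sodium pump, at 9.62, 35.4 and 10.8 CPM, Tmem158 at 11.4, 35.4 and 12.002 CPM, Lzts2 at 12.4, 34.6 and 13.9 CPM and Ccdc28b at 11.2, 30.5 and 6.12 CPM. Tmem176b and Tmem176a stood at 2.96, 24.2 and 7.78 CPM and 2.05, 12.9 and 3.48 CPM. The palmitoyltransferase Zdhhc2 was at 5.67, 17.3 and 3.48 CPM, the vesicle GTPase Rab26 at 3.57, 10.5 and 2.52 CPM, the pentraxin receptor Nptxr at 0.342, 12.5 and 3.92 CPM and Hspg2, which encodes the matrix proteoglycan perlecan, at 1.49, 14.1 and 3.64 CPM. Snhg11, Spsb2, Fndc4, Fndc5, BC029722, Tmem132a, 3632451O06Rik, Them6, Cercam and the lectin gene Mgl2 had E14.5 levels of 9.55 CPM (Fndc5) to 19.1 CPM (Snhg11). Each of these was highest at E14.5 by the choice of members, and E12.5 and E16.5 differed in order among them.

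**Figure D2:**
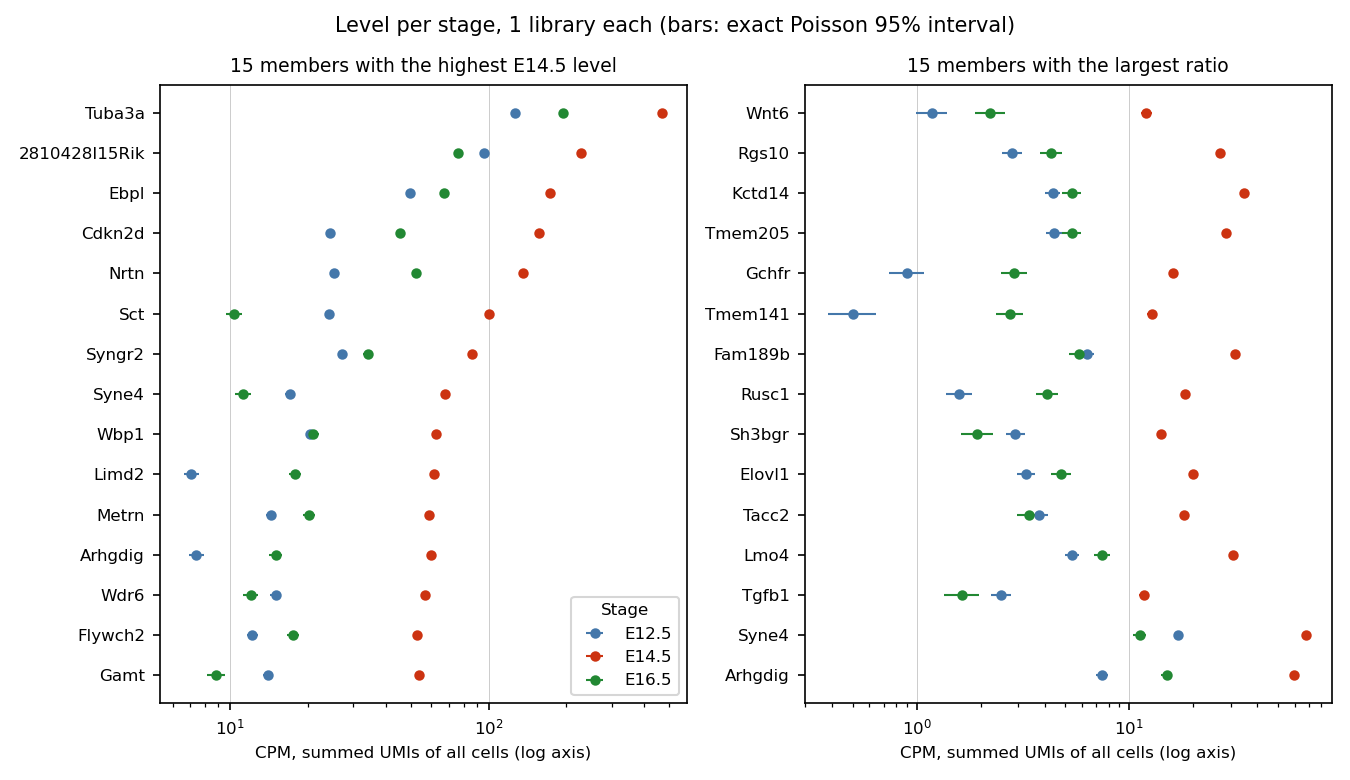
Level at each stage (CPM of summed UMIs, logarithmic horizontal axis) of the 15 members with the highest E14.5 mean level (left) and the 15 with the largest ratio to the higher other stage (right); points are single libraries and bars are exact Poisson 95% intervals, which are often narrower than the point. E14.5 lies to the right of both other stages for each gene by the choice of members, and the order of E12.5 and E16.5 varies, with Sct, Syne4 and Gamt lowest at E16.5 and Limd2 and Arhgdig lowest at E12.5.

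Of the 75, 8 stood in 22 lists of markers and pathways. They were 1 of 12 genes of at least 10 CPM at E14.5 in the list for WNT response (Ccnd2), 1 of 5 for FGF signalling (Fgfr3), 1 of 6 for adhesion (Itgb5), 1 of 16 for p53 targets and cell cycle inhibitors (Cdkn2d), 2 of 5 for peptide ligands (Sct and Igf2) and 2 of 4 for pregranulosa markers (Wnt6 and Fst). Over all genes of that level the rule was met by the 1.16% given above, and the lists are short. Of the genes that met the rule and were left out by name, Sp5 and Ccnd1 stood in the WNT list, Msx1 in those for BMP and TGF-beta response and for homeobox factors, Stra8 in those for retinoic acid and for meiotic entry and prophase, and Rec8 in the meiotic list. In the list for NOTCH signalling none of 4 genes met it. In the meiotic list 43 of 48 measured genes had at least 10 CPM at E14.5, of which 36 were 2.5-fold above E12.5 and 2 above E16.5. Those 2, Stra8 and Rec8, met the rule and are among the genes left out by name. Over all 7260 genes of at least 10 CPM, 1397 (19.2%) were 2.5-fold above E12.5 and 574 (7.91%) above E16.5, so most genes higher at E14.5 than at E12.5 were not lower again at E16.5 by that margin.

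The order of cells within a library was not used directly in the choice of members, and it gives where along the path from early to late cells they were highest. In each stage, cells other than marker cells were ordered by the share of late UMIs (26 genes of the synaptonemal complex and recombination) in late plus early UMIs (23 pluripotency and early germ cell genes), and divided into 5 equal bins. No axis gene is a member. The axis genes themselves differ between stages, so the order is not independent of stage. The first E14.5 bin is the nearest of its stage to E12.5 in late share, and the last the nearest to E16.5. Members were chosen to be lower at both those stages, so lower end bins are partly built in. At E14.5 the median late share went from 32.8% in the first bin through 57.6, 76.05 and 89.5% to 96.8% in the last. It was 4.59 to 12.04% over the E12.5 bins and 94.6 to 99.6% over those of E16.5. Median depth fell along the E14.5 bins from 13649 to 8716 UMIs per cell. The counts of members past a fold between bins stayed within 1.5-fold in cells thinned to 5000 UMIs unless stated.

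Within E14.5, most members were highest in the second or the third bin and not in the end bins. Of the 64 members of at least 10 CPM in these cells, 7, 30, 18, 8 and 1 were highest in bins 1 to 5. The highest bin was taken by value alone, so near ties count for 1 bin (Bmyc at 35.7 and 35.8 CPM in bins 1 and 2). Over all 7236 genes of that level the shares were 31.0, 12.2, 9.76, 13.0 and 34.1%. The first bin was at least 1.5-fold above the last for 40 of 64 members, beside 31.3% of genes, and the last above the first for 8, beside 30.7%. An inner bin was at least 1.5-fold above both end bins for 21 of 64, beside 1.44%. This measure was added after the values were seen, and with 3 bins in place of 5 it counted 4. The background shares are over all genes and not over genes that change alike between stages. They do not set apart what the choice of members brings. The summed level of the 67 was 2424, 3274, 3439, 3018 and 2175 CPM over the bins, highest in the middle one. The most abundant members weigh most in this sum, whereas by count more members were highest in bin 2 (30) than in bin 3 (18).

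Cdkn2d was among the 21, with 134, 207, 212, 146 and 72.2 CPM over the 5 E14.5 bins. Its first and last bins stood at 134 CPM (129.8 to 139) and 72.2 CPM (68.1 to 76.5). Syne4 was highest in the third bin and at similar levels at the ends, with 40.4, 69.1, 99.9, 90.6 and 44.8 CPM. Tmem141 had the largest such difference (2.27-fold over the higher end), with 7.51, 15.1, 17.4, 11.5 and 7.66 CPM, and Lmo4 went through 31.5, 47.5, 40.6, 21.3 and 4.65 CPM. Of the 9 genes that met the rule but were left out by name, 6 also passed this limit, among them Rec8 with 192, 312, 267, 145 and 38.3 CPM and Msx1 with 96.3, 161, 160.4, 71.7 and 13.9 CPM. Slc27a3, Zfp385a and Sp5 did not.

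Tgfb1 had the steepest decline. It stood at 22.2, 16.8, 8.44, 4.51 and 1.19 CPM over the bins, from 22.2 CPM (20.4 to 24.1) in the first to 1.19 CPM (0.719 to 1.86) in the last. Sct, at 149.7, 137, 99.8, 58.2 and 25.1 CPM, and Tacc2, at 31.7, 23.05, 15.3, 8.04 and 4.46 CPM, were also highest in the first bin, and Fam132a (27.2, 30.3, 19.8, 9.13 and 2.199 CPM) and Sh3bgr (19.9, 23.1, 13.2, 4.94 and 2.32 CPM) in the second. These 5 were at their lowest in the last bin.

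The opposite order was seen in 8 members. Tuba3a was the only one of the 64 highest in the last bin, with 292, 411, 526, 617 and 620.4 CPM, from 292 CPM (285 to 299) to 620.4 CPM (608 to 633). 2810428I15Rik had the largest ratio of last to first bin (2.89), with 102, 170.03, 286, 358 and 294 CPM, and Il11ra1 followed (2.48), with 14.8, 41.4, 60.99, 59.7 and 36.8 CPM. Nrtn stood at 72.99, 125, 168, 184 and 152 CPM and Tmem176b at 9.03, 15.8, 25.3, 28.9 and 20.9 CPM. The most abundant members thus differed in place along the axis, with Sct highest in the first bin, Cdkn2d in an inner bin and Tuba3a in the fourth and the last.

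**Figure D3:**
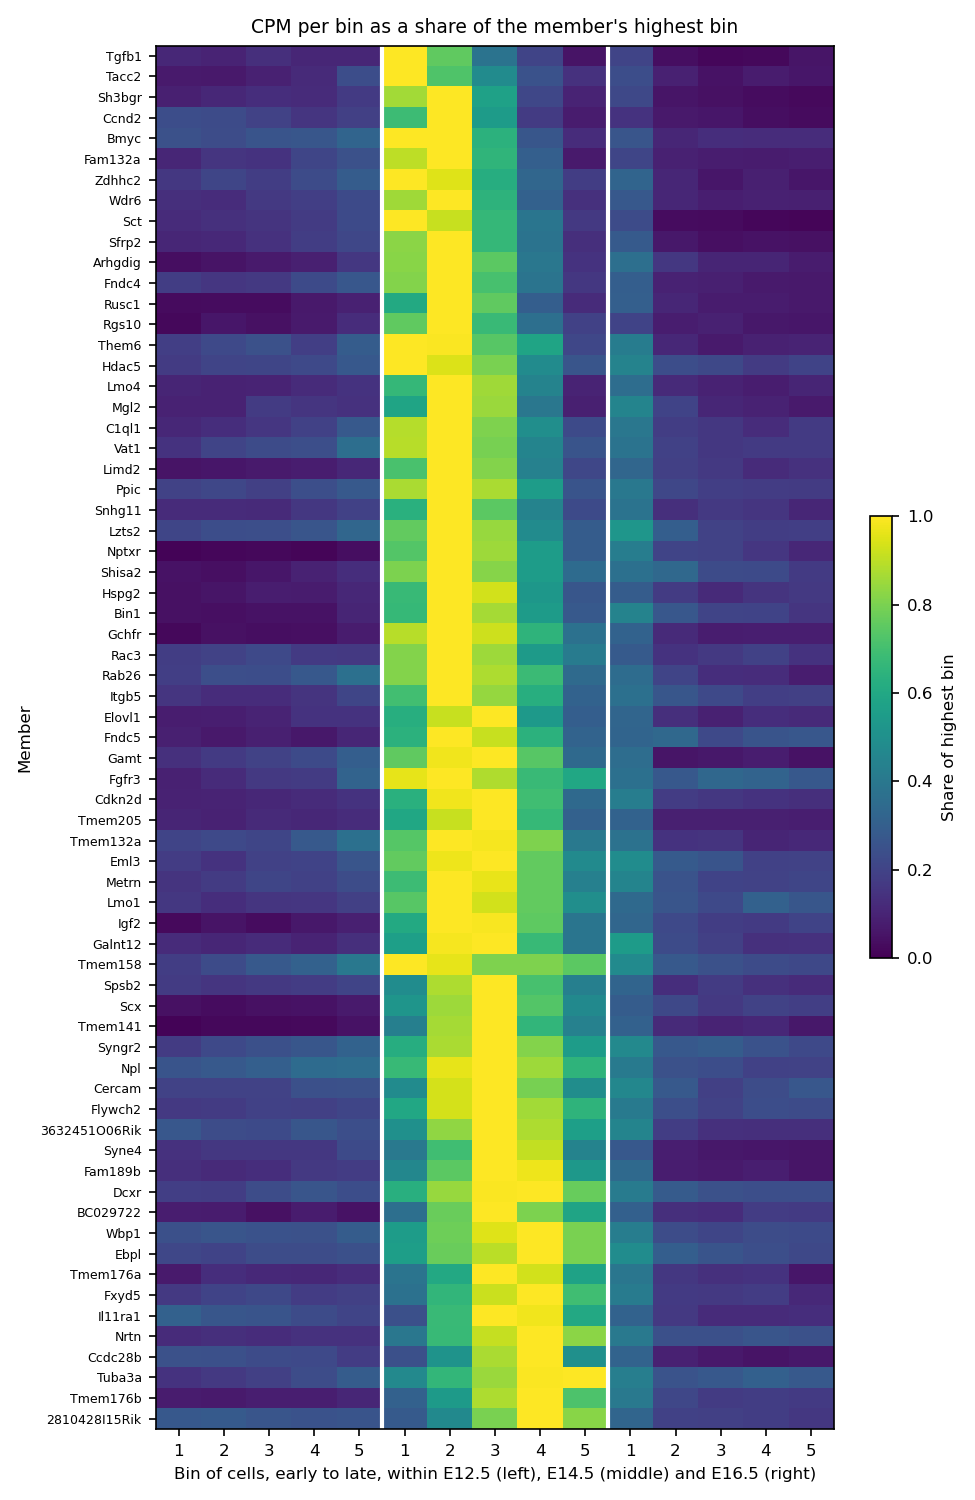
Level of the 67 members with less than 50% of their E14.5 UMIs in marker cells over 5 bins of cells in each stage, ordered from early to late by axis genes (horizontal axis), as a share of each member's highest bin (colour); rows are ordered by the centre of the E14.5 profile. The brightest cells lie in the second and the third E14.5 bins for most rows. Tgfb1 and Tacc2 at the top are brightest in the first bin, and Tuba3a near the bottom is brightest in the last, by little over the fourth. In most rows the first E16.5 bin is brighter than the other E16.5 bins.

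The stages on either side were also uneven. At E16.5, the first bin, that with the smallest late share, was at least 1.5-fold above the last for 66 of the 72 members with at least 1 CPM there, and none had the opposite. The shares over 11950 genes were 22.8% and 7.02%. Of the 66 members among these with less than 50% of their E14.5 UMIs in marker cells, 63 had the first bin higher. Members were chosen to be lower at E16.5 than at E14.5, and the first E16.5 bin is nearest to E14.5 in late share. A higher first bin is thus partly built into the choice, and the 11950 genes were not chosen that way. The summed level of the 67 was 1504 CPM in the first bin and 773, 714, 715 and 664 in the others. Sct stood at 34.4, 5.18, 4.38, 2.75 and 2.29 CPM over the E16.5 bins, from 34.4 CPM (31.5 to 37.5) to 2.29 CPM (1.53 to 3.28). Gamt (23.9, 3.82, 4.31, 5.42 and 3.31 CPM) and Tgfb1 (4.53, 0.864, 0.431, 0.506 and 1.26 CPM) had the same break after the first bin. Lmo1 and Fgfr3, at 11.3, 8.71, 7.25, 10.2 and 8.83 CPM and 7.88, 5.83, 7.11, 6.73 and 5.83 CPM, differed by less than 1.5-fold between the ends.

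At E12.5, the last bin was at least 1.5-fold above the first for 35 of 67 members with at least 1 CPM there, and the first above the last for 4, beside 10.9% and 4.99% of 10967 genes. Setting aside members found mostly in marker cells, the former count was 34 of 62. The count was 23 in cells thinned to 5000 UMIs. Cells with Y-linked UMIs made up 29.4% of the first bin and 2.67% of the last, and without them the count was 34. Members were chosen to be higher at E14.5 than at E12.5, and the last E12.5 bin is nearest to E14.5 in late share. A higher last bin is thus partly built into the choice as well. Rgs10 had the largest ratio (5.60), with 0.951, 2.48, 1.84, 2.97 and 5.32 CPM over the E12.5 bins, from 0.951 CPM (0.603 to 1.43) to 5.32 CPM (4.45 to 6.31). Arhgdig stood at 3.39, 4.65, 6.34, 7.92 and 14.4 CPM and Tuba3a at 90.97, 102, 117, 143 and 182 CPM. Il11ra1 went the other way, with 18.9, 16.3, 15.96, 13.9 and 12.5 CPM. The members' E12.5 level in the last bin remained under that of the first E14.5 bin in sum (912 against 2424 CPM).

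The number of members found in 1 cell was counted as well. With each cell thinned to 5000 UMIs, which left out 36 shallower cells (0, 11 and 25 in time order), the median cell held UMIs of 3 of the 67 members at E12.5, 10 at E14.5 and 3 at E16.5. Without thinning the medians were 12, 19 and 6. At equal depth, a higher number at E14.5 follows from the choice of members, and no background over other genes was made. Over the E14.5 bins the medians were 10, 13, 12, 10 and 7. At E16.5 the first bin had a median of 4 with an upper quartile of 8, and the other bins a median of 3 with an upper quartile of 4. Marker cells held a median of 12, 15 and 12, above the other cells of their stage.

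**Figure D4:**
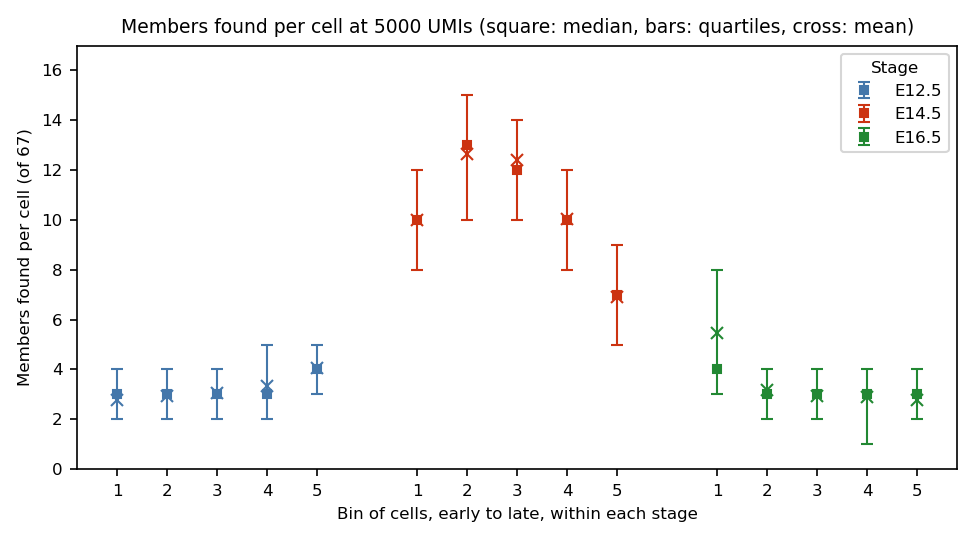
Number of the 67 members with at least 1 UMI per cell after thinning each cell to 5000 UMIs (vertical axis) in 5 bins of cells from early to late within each stage (horizontal axis); squares are medians, bars reach from the lower to the upper quartile and crosses are means over cells, which are not replicates. The E14.5 bins lie at medians of 7 to 13, those of E12.5 and E16.5 at 3 or 4, and the first E16.5 bin has an upper quartile of 8. The height at E14.5 follows from the choice of members.

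Features that the rule did not use are described last. Of the 75, 72 had a single gene of that symbol in GENCODE M21 (GRCm38). The 64 of these with less than 50% of their UMIs in marker cells had a median gene length of 7637 bases, against 23622 bases over 7045 genes of at least 10 CPM. Chromosome 7, named because it had the most members, held 10 of 72 (13.9%) and 7.61% of those genes. Of these 10, Lgals7 and Kctd14 were found mostly in marker cells. Chromosome X held 1 (1.39%), Xist, also found mostly in marker cells, beside 3.82% of those genes. Tmem176b and Tmem176a, which encode related membrane proteins, overlap by 578 bases on opposite strands, and Rac3 and Dcxr lie 1429 bases apart. Other genes overlapped 49 of the 72 on either strand and 17 on the same strand, beside 56.2 and 23.5% of the 7045 genes, and the use of strand in counting is not given in the sources, so UMIs of overlapping genes may be shared.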

How the data were processed

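Single-cell RNA of sorted germ cells was captured with a 10x Genomics kit for 3' ends, version 2, per the labels' protocols. Cell Ranger 2.0.0, FastQC and the build mm10 were used, per the submitters' processing notes. Filters on cells or genes and the use of strand in counting were not given in the sources used here. In the deposited table of 14133 genes and 19144 cells, the authors had scaled each cell to 10000 UMIs, added 1 and taken the natural log. Undoing the log gave whole UMIs for 100.0% of 68606039 non-zero values (within 0.01; largest distance 0.00037). Members were chosen on the mean over cells of CPM, and other levels are CPM of summed UMIs with exact Poisson 95% intervals. The median cell had 26691.5, 10960 and 12659 UMIs in time order. With 1 library per stage no test was made. Instead, counts of members past a fold are given beside the share of all genes past it.

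The members, marker lists and pathway lists were chosen with earlier results of these data known. Named by rule were the 15 members of highest E14.5 level, the 15 of largest ratio, members in a list, the 5 with the largest ratio of end bins in each direction, the 5 with the largest share in marker cells, and the genes next to the limit. No cells were removed and no doublet caller was run, so doublets may remain; an alternative left out the 6% of cells with most UMIs. The script for the rule was tested on simulated data. Alternatives changed the scaling, depth, cells, added CPM, fold, minimum level, axis and number of bins. Promoter windows came from RefSeq and gene positions from GENCODE M21. Python 3.11.15, numpy 2.4.6, scipy 1.17.1 and pandas 2.3.3 were used.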

Additional observations from a re-analysis of the deposited data

How the results depend on the processing

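The rule found 75 genes, and 138 at a 2-fold limit, 47 at 3-fold, 304 with no minimum level and 37 with a minimum of 20 CPM. Under the other settings tried it found 56 to 82. CPM of summed UMIs gave 73 genes, 67 of them among the 75, a median-of-ratios scaling 59 (55 shared), thinned cells 76 (71 shared) and 1 CPM added to the other stages 56 (all shared). The median-of-ratios scaling set E12.5 levels 0.35 (log2) higher against E14.5 than CPM does. Of the pathway and marker lists 8 genes were members, against 5 without cells of at least 5 (or at least 3) pregranulosa markers, 5 with 1 CPM added, 5 at 3-fold, 21 with no minimum level and 2 with a minimum of 20 CPM. Without cells of at least 5 and of at least 3 pregranulosa markers, the log2 ratio of E14.5 to the higher other stage was negative for Anxa2 (-0.65 and -0.72), Fst (-0.37 and -0.53) and Xist (-1.86 and -2.88). Of the 360 values of this ratio under alternatives for the 40 named members, 265 moved by less than counting error and 89 by more, and the 6 just given changed sign. The count of E14.5 members with an inner bin above both ends was 4 with 3 bins and 3 at a 2-fold difference, against 21. The E12.5 count was 23 with thinned cells, against 35; the alternatives at E12.5 and E16.5 and those for the inner bins were chosen after seeing the data. The cause of these shifts was not tested, apart from fewer genes or cells entering. With 1 library per stage there is no estimate of the spread between embryos, and no library could be left out. No paired analysis was possible because each stage was 1 library with no replicate. Depth limits what single cells show of members near 10 CPM.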
